A study of Mus musculus with 20 samples.

Results

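The stefin A cluster is a set of neighbouring, closely related mouse genes that encode small inhibitors of cysteine proteases. Of its genes, 7 (Cstdc4, Cstdc5, Cstdc6, Stfa1, Stfa2, Stfa3 and Stfa2l1) were taken by gene symbol. They are a fixed list, plus any symbol in the acute or survival table beginning with Cstdc or Stfa, which added no further gene. The acute table listed 6 of the 7 among 26099 genes, the survival table listed 5 among 26486, of 27465 genes in either table. Cstdc6 was not analysed here in either table and Stfa3 not in the survival table. The set was selected on its high values in the acute KO libraries, read against their controls, so the acute differences between knockout and control are given as a description with a standard error and without a test.

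The libraries came from spleens of sub-lethally irradiated mice that carried an intravenously transplanted mouse T-cell acute lymphoblastic leukemia (T-ALL) with a conditional knockout of Acly, the gene of ATP-citrate lyase. Acute-arm mice were given, once overtly leukemic, intraperitoneal tamoxifen at 3 mg per mouse in corn oil (4 KO libraries, called Acly deleted in the labels) or corn oil alone (6 control libraries, called WT in their titles), 72 h before their spleens were removed. Survival-arm mice were given tamoxifen (5 KO libraries) or corn oil (5 control libraries) 48 h after transplantation and were followed until they reached the humane endpoint. Both arms therefore compare deletion plus tamoxifen with vehicle in a leukemia that carries the conditional allele, and the effects of the drug and of the deletion cannot be told apart. The labels name neither the Cre driver, nor the age of the mice, nor how many independent leukemias were transplanted. Each spleen was made into a whole-cell suspension with red cells lysed and no sort named, so each library holds leukemic and host cells. Nothing in the labels says that the libraries of a group are separate mice, and p-values measure the spread between libraries only.

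Stefins belong to the cystatin superfamily. They are small proteins without a secretion signal that act in the cytosol, where they block papain-like cysteine cathepsins by a tight, reversible fit into the active site. Humans have a single stefin A gene, CSTA, whereas the mouse carries a tandem cluster of near-copies on chromosome 16, and several of these are known as abundant transcripts of mouse neutrophils.

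The start regions of the genes show how alike the copies are. RefSeq promoter windows (GRCm38.p6, 250 bases before to 50 bases after the annotated start) were matched for 6 members, and every one of these held the same pair of 13-base stretches. The stretches are printed below in capitals within the sequence that spans them, 5′ to 3′ on the strand of each gene, and they are shown because they are the longest runs of letters common to all 6 windows. The printed sequences lie at chr16:36156755-36156819 (Stfa2l1, plus strand), chr16:36184160-36184224 (Cstdc4, plus), chr16:36277095-36277160 (Stfa1, plus), chr16:36367537-36367602 (Cstdc5, minus), chr16:36408351-36408415 (Stfa2, minus) and chr16:36455382-36455446 (Stfa3, minus).
Stfa2l1: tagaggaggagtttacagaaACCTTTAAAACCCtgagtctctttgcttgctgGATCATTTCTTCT
Cstdc4: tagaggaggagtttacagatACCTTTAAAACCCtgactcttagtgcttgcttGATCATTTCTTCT
Stfa1: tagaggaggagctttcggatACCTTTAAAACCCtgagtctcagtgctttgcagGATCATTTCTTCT
Cstdc5: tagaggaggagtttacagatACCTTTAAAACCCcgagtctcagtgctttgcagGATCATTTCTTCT
Stfa2: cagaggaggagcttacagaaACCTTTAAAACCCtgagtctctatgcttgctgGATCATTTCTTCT
Stfa3: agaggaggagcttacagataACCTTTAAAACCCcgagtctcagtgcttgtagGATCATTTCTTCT

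The first stretch, ACCTTTAAAACCC, began 36 to 12 bases before the annotated start and occurred in 9 of 32851 promoter windows of the mouse table (0.0274%). Besides the 6 members these were the windows of Csta3, Cstdc3 and Gm7260. The second, GATCATTTCTTCT, lay across or just after the start and occurred in 10 windows (0.0304%), those same 9 and that of 1700010I02Rik. Among the motifs searched on both strands, GAGGAA, the core letters bound by the myeloid factor PU.1, was in 6 of 6 member windows and in 28.3% of all windows. The loose C/EBP letters TTNNGNAA were in 5 of 6 (all but Stfa3) and in 40.7% of all windows. The strict C/EBP letters TTGCGCAA, a special case of the loose ones, were in 0 of 6 member windows and in 0.183% of all windows, and TATAAA was in 0 of 6 and in 13.6%. These counts describe letters within a window and not binding.

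The transcripts are alike enough to share reads. Over the 21 pairs of the 7 coding sequences (GENCODE vM21), identity ran from 73.4% for Stfa1 and Stfa2l1 to 98.0% for Cstdc5 and Stfa1, with a median of 79.5%. Stfa2 and Stfa2l1 were 96.5% identical, and Cstdc5 and Cstdc6 were 95.2% identical. Counted in words of 31 bases, the default unit of the pseudo-aligner kallisto that the submitters' processing notes name, 43.4% of the words of Stfa1 and 41.3% of those of Cstdc5 were also in another member. The share was 29.3% for Stfa2l1, 26.1% for Stfa2 and 50.7% for Cstdc6, against 0.726% for Cstdc4 and 0% for Stfa3. The split of reads among Stfa1, Cstdc5 and Cstdc6, and between Stfa2 and Stfa2l1, is therefore uncertain. Cstdc6, not analysed here, has 42.0% of its words in common with Cstdc5 and 39.2% with Stfa1. Stfa3 has no word in common with another gene. Of the 1791 words of Cstdc4, 301 also occur in genes that are not members, and 83.2% occur in no other gene. Those words come from 2 transcripts, and the longest coding one has only 414 bases. The share for that coding transcript alone was not counted, so how far Cstdc4 shares reads is uncertain as well.

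**Figure D1:**
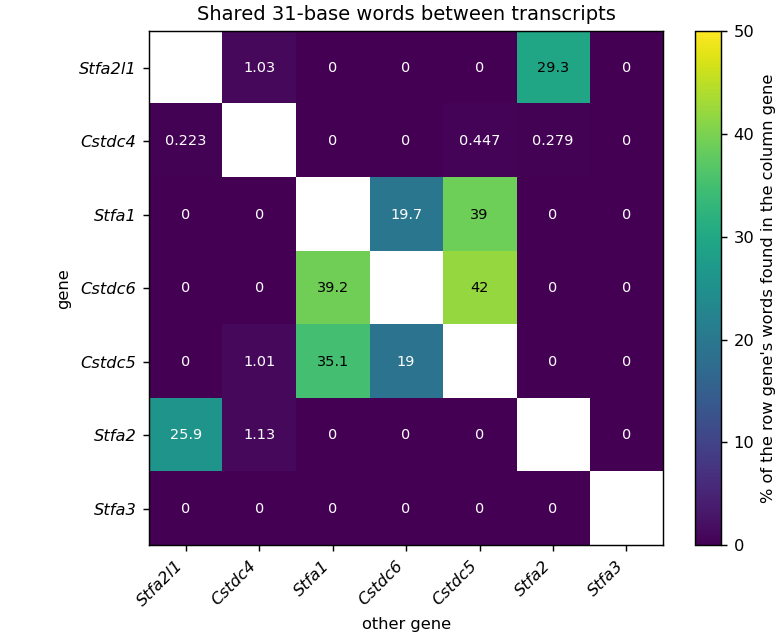
Share of the 31-base words of each gene (rows, in chromosomal order) that also occur in each other gene of the cluster (columns), in percent of the row gene's words. Stfa1, Cstdc6 and Cstdc5 form a group, Stfa2l1 and Stfa2 a pair, and the row of Stfa3 is 0 throughout.

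The values are normalized counts, which the authors scaled within each table, so levels are compared within an arm. The libraries summed to between 19432235 and 20731983 normalized counts in the acute table and between 19998354 and 21623571 in the survival table. Acly averaged 5670 ± 766 in acute KO spleens and 7735 ± 298 in their controls (SD, n = 4 and 6), and 3091 ± 712 in survival KO spleens and 7889 ± 561 in their controls (SD, n = 5 each). Its log2 fold change was -0.46 (SE 0.0747, limma adjusted p = 0.000866) in the acute arm and -1.38 (SE 0.131, limma adjusted p = 0.0016) in the survival arm. The acute Acly call was lost (-0.08, limma adjusted p = 0.654) after scaling each library to Trbc1 plus Trbc2, the constant genes of the T-cell receptor beta chain. The 11 T-lineage markers summed to 100638–136811 in acute KO spleens and 160428–169780 in their controls, and to 145923–168510 in survival KO spleens and 157147–167752 in theirs, so all 20 spleens carried T-lineage transcripts at a high level.

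In the acute arm, all 6 listed stefin genes were higher in the KO spleens, by 7.71-fold to 32.9-fold on the log2(value + 1) scale, and the KO libraries did not overlap the control libraries for any of them. In bulk tissue, more cells of an expressing type and more RNA per cell cannot be told apart. Across all genes tested, 2731 of 16363 (16.7%) were called higher in KO and 2081 (12.7%) had every KO library above every control library. A difference of at least 8-fold was reached by 290 genes (1.77%) and by 5 of 6 members. The 6 of 6 members called by limma and the 6 of 6 without overlap stand beside those shares as a description, since these contrasts chose the members. A gene was tested where its value reached 10 in at least 4 libraries: the 4 KO libraries alone met this for every member, whereas 5 of 6 control libraries reached 10 for Stfa2l1, 1 for Cstdc5 and 0 for the rest.

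Stfa2l1, stefin A2 like 1, lies at the low-coordinate end of the cluster and was the member with the highest control level. Its normalized counts were 35.3, 199, 146 and 101 in KO libraries 1 to 4, and 7.72 at the lowest, 13.2 at the median and 17.2 at the highest in the 6 control libraries. The lowest KO value was above the highest control value, and the log2 fold change was 2.95 (SE 0.411), the smallest of the set. With KO libraries 2 and 3 left out it was 2.20 (SE 0.429).

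Cstdc4, a cystatin-domain gene with few words in common with the other members, had 30.6, 153, 117 and 74.5 normalized counts in the KO libraries. Its control libraries ran from 2.09 through a median of 5.88 to 9.42. The groups were apart, with a log2 fold change of 3.79 (SE 0.488, 13.9-fold).

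Stfa1, the gene of stefin A1, had 48.3, 208, 136 and 115 normalized counts in the KO libraries. Its control libraries ran from 0 (control library 4) through a median of 6.54 to 7.74, and the log2 fold change was 4.38 (SE 0.608, 20.9-fold). Cstdc5, its near-copy, had 42.5, 232, 175 and 158 in the KO libraries, against 0 at the lowest, 3.74 at the median and 10.5 at the highest in the controls. Its log2 fold change of 5.04 (SE 0.669) was the largest of the set. Because reads can pass between these copies, their sum was also taken. It ran from 90.9 to 441 in KO and from 3.06 to 17.9 in controls, a log2 difference of 4.67 (SE 0.589). This sum cannot settle reads shared with Cstdc6, which was not analysed here. The fold changes of Stfa1 and Cstdc5 lay no further apart than about 1 standard error.

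Stfa2, the gene of stefin A2, had 19.1, 99.1, 83.4 and 33.2 normalized counts in the KO libraries, with controls from 0.960 through a median of 4.59 to 6.28. The groups did not overlap and the log2 fold change was 3.52 (SE 0.558, 11.5-fold). Summed with its near-copy Stfa2l1, the pair ran from 54.4 to 298 in KO and from 8.68 to 20.8 in controls, a log2 difference of 3.17 (SE 0.572).

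Stfa3, the gene of stefin A3 and the member whose words are all its own, had 10.6, 88.3, 60.2 and 42.3 normalized counts in the KO libraries. Its controls ran from 0 through a median of 2.58 to 5.56. KO library 1 was just over the filter of 10, yet above every control, and the log2 fold change was 3.74 (SE 0.628, 13.4-fold). This member is the least open to shared reads and lies in the middle of the range of fold changes.

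**Figure D2:**
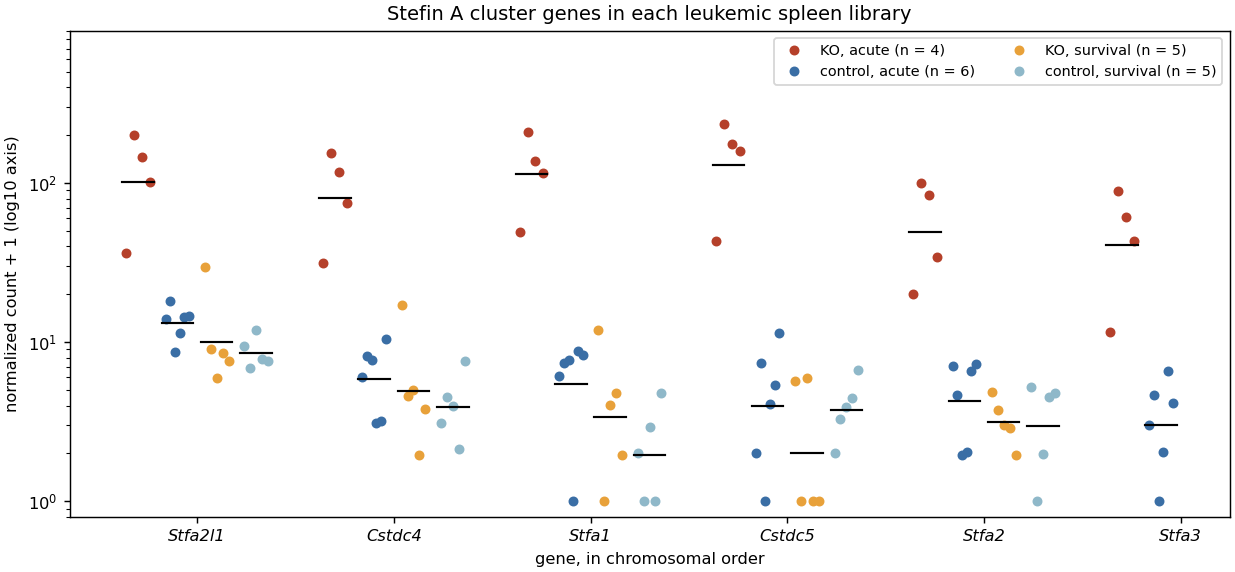
Normalized count plus 1 (log10 axis) of each listed stefin A cluster gene in every library, KO and control of the acute and then of the survival arm, with genes in chromosomal order. Points are libraries and black lines are group means on the log scale. All acute KO points of each gene lie above its acute control points, while the survival groups overlap.

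Summed over the 6 members, the cluster reached 186, 979, 717 and 524 normalized counts in KO libraries 1 to 4, against 17.7 at the lowest, 35.5 at the median and 50.4 at the highest in the controls. The means were 601.7 ± 334 in KO and 34.3 ± 12.7 in controls (SD, n = 4 and 6), a log2 difference of 3.95 (SE 0.568, 15.5-fold). It was 3.24 without KO libraries 2 and 3, the highest libraries. Every member and the sum put the KO libraries in the same order, with library 1 lowest, then 4, 3 and 2.

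Per kilobase of the longest coding transcript in GENCODE vM21, the levels in acute KO spleens were ordered Stfa2l1 (287 ± 166 normalized counts per kb, SD, n = 4), Cstdc5 (245 ± 129), Cstdc4 (226 ± 128), Stfa1 (206 ± 107), Stfa2 (125 ± 81.8) and Stfa3 (122 ± 79.1). Each step between neighbours in this order was smaller than the spread between libraries. In the acute controls Stfa2l1 stood at 30.0 ± 7.66 (SD, n = 6), followed by Cstdc4 at 13.2 ± 7.05, Stfa1 at 9.0 ± 4.65, Stfa2 at 8.32 ± 5.20, Cstdc5 at 6.83 ± 6.19 and Stfa3 at 6.24 ± 4.82. There only the step from Stfa2l1 to Cstdc4 exceeded the spread of either gene. As a share of the summed cluster counts, Stfa2l1 took 18.9–20.3% in each KO library and 27.1–59.1% in each control library. Cstdc5 took 22.8–30.1% in KO and 0–20.9% in controls. At control levels of a few counts these shares carry wide counting error.

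In the survival arm the cluster stayed low in both groups and no member passed the filter, which asked for a value of 10 in at least 5 libraries. Fitted without the filter among 26486 genes, 0 of 5 members had an adjusted and 0 of 5 an unadjusted limma p under 0.05. The share of all tested genes called there was 0.0124% (2 of 16136, Acly and, named after its values were seen, Ccnd1), and 1.21% had every KO library above every control library. KO and control libraries overlapped for all 5 members.

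Stfa2l1 had the highest mean of the members in both survival groups. Its normalized counts were 28.5, 8.13, 4.97, 7.53 and 6.59 in KO libraries 1 to 5 and 8.45, 5.84, 10.9, 6.88 and 6.62 in control libraries 1 to 5. Only KO library 1 stood apart, and the log2 fold change was 0.23 (SE 0.417). Cstdc4 had 16.2, 3.61, 3.97, 0.942 and 2.82 in KO and 2.12, 3.50, 2.97, 1.15 and 6.61 in controls, a log2 fold change of 0.34 (SE 0.547). The highest value was once more that of KO library 1.

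Stfa1 had 11, 0, 3.01, 3.79 and 0.951 in survival KO libraries and 1.02, 0, 1.95, 0 and 3.81 in their controls, a log2 fold change of 0.79 (SE 0.661). Cstdc5 had 4.72, 0, 4.97, 0 and 0 in KO and 1.02, 2.27, 2.90, 3.44 and 5.67 in controls, a log2 fold change of -0.90 (SE 0.619). The opposite signs of these near-copies drew together in their sum, with a log2 difference of -0.19 (SE 0.80). Stfa2 had 3.83, 2.73, 2.01, 1.91 and 0.951 in KO and 4.22, 0, 0.993, 3.49 and 3.82 in controls, a log2 fold change of 0.090 (SE 0.517). At these levels small differences were not detectable.

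Summed over the 5 members, the cluster stood at 64.2, 14.5, 18.9, 14.2 and 11.3 in survival KO libraries and 16.8, 11.6, 19.7, 15 and 26.5 in control libraries. The log2 difference was 0.18 (SE 0.468), and -0.24 without KO library 1. The acute and survival fold changes of the members and of the genes described next are drawn side by side in the plot of fold changes.

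**Figure D3:**
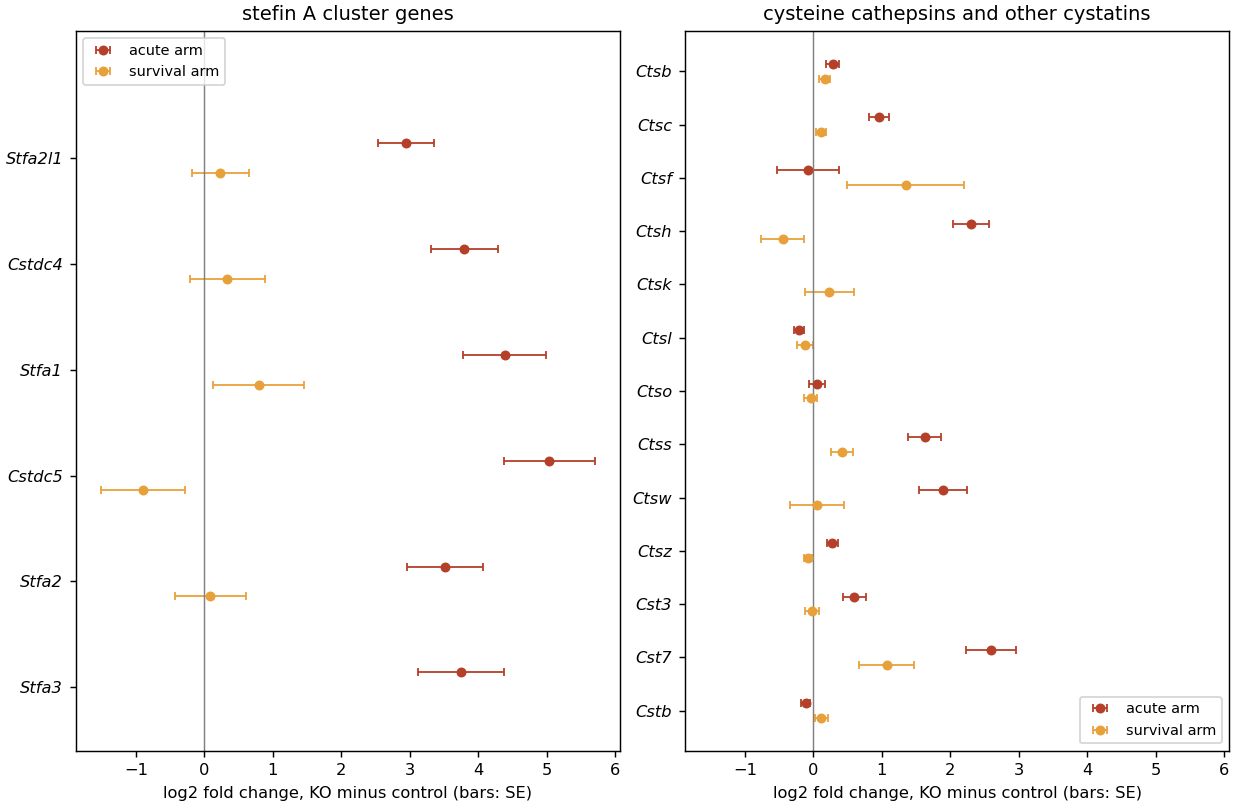
Log2 fold change, KO minus control, of stefin A cluster genes (left) and of cysteine cathepsins and other cystatins (right) in the acute and survival arms, with bars of 1 standard error. The acute values of the cluster lie between 2.95 and 5.04 and the survival values between -0.90 and 0.79; among the other genes only Cst7 and Ctsh exceed 2 in the acute arm.

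The proteases that stefins inhibit had smaller acute fold changes than the cluster. This is no finding, since the cluster was selected on its high acute KO values. Of all genes tested in the acute arm 16.7% were called higher and 14.7% lower, shares that also stand beside the lists that follow. Of 10 cysteine cathepsins 9 were tested in that arm, of which 5 rose and 0 fell. Their median log2 fold change was 0.28 beside -0.023 over all genes tested. Under quantile normalization 6 were called higher and 1 lower, and scaled to Trbc1 and Trbc2 7 were called higher and 0 lower. Ctsh, the aminopeptidase cathepsin H, averaged 504 ± 180 in KO and 102 ± 34.6 in controls (SD, n = 4 and 6; log2 fold change 2.30, SE 0.261, limma adjusted p = 8.37e-05). Ctsw, a cathepsin of cytotoxic lymphocytes, averaged 81.3 ± 39.1 in KO and 19.99 ± 6.54 in controls (log2 fold change 1.89, SE 0.347, limma adjusted p = 0.00175). Ctss, which trims the invariant chain in antigen-presenting cells, averaged 914 ± 375 in KO and 277 ± 37.7 in controls (log2 fold change 1.62, SE 0.236, limma adjusted p = 0.000406). The other called members were Ctsc, the activator of granule serine proteases (0.96, limma adjusted p = 0.000424), and Ctsz (0.28, limma adjusted p = 0.0245); they lie outside the naming rule and were chosen after their values were seen. The Ctsz call was lost without KO library 2 (0.19, limma adjusted p = 0.0736), KO library 3 (0.26, adjusted p = 0.0697), control library 4 (0.26, adjusted p = 0.0507) or control library 5 (0.26, adjusted p = 0.0502). It was also lost without KO libraries 2 and 3 together (0.13, limma adjusted p = 0.313) and without a mean-variance trend (0.28, limma adjusted p = 0.0552).

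Ctsb and Ctsl, the broadly expressed lysosomal cathepsins B and L, did not pass the threshold. Ctsb averaged 6024 ± 1127 in KO and 4905 ± 252 in controls (log2 fold change 0.28, limma adjusted p = 0.0513), and Ctsl 524 ± 54.5 in KO and 604 ± 35.9 in controls (-0.21, limma adjusted p = 0.0544). Both depend on the setting. Ctsb was called higher without KO library 1 (0.39, limma adjusted p = 0.00413) or KO library 4 (0.32, adjusted p = 0.0423), with a pseudocount of 5 (0.28, adjusted p = 0.0497), under quantile normalization (0.29, adjusted p = 0.037) and when scaled to Trbc1 and Trbc2 (0.65, adjusted p = 0.00738). Ctsl was called lower without KO library 2 (-0.28, limma adjusted p = 0.015) or control library 1 (-0.24, adjusted p = 0.0371) and under quantile normalization (-0.30, adjusted p = 0.00783), and it turned to 0.17 (adjusted p = 0.288) when scaled to Trbc1 and Trbc2. In the survival arm 10 cathepsins were tested with limma, 0 were called and 1 had an unadjusted p under 0.05, Ctss. The difference between the arms itself passed for 5 of 9 cathepsins, against 20.2% of 15673 genes tested for it.

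Among 20 other cystatin genes, 3 were tested in each arm, and 2 of them rose in the acute KO spleens, with a median of 0.60. Cst7, the leukocyte inhibitor cystatin F, averaged 192 ± 99.4 in KO and 31 ± 15.6 in controls (log2 fold change 2.59, SE 0.365, limma adjusted p = 0.000336). Cst3, the secreted inhibitor cystatin C, averaged 2529 ± 594 in KO and 1669 ± 366 in controls (log2 fold change 0.60, SE 0.166, limma adjusted p = 0.0173). The Cst3 call was lost without KO library 2 (0.46, limma adjusted p = 0.0591), without KO library 3 (0.55, adjusted p = 0.0558) and with both left out (0.33, adjusted p = 0.258). Cstb, the broadly expressed stefin B, averaged 482 ± 18.6 in KO and 522 ± 36.3 in controls (-0.11, limma adjusted p = 0.239). It was called in opposite directions under the other scalings, lower under quantile normalization (-0.21, limma adjusted p = 0.0469) and higher when scaled to Trbc1 and Trbc2 (0.26, limma adjusted p = 0.0387), so no direction is given for it. In the survival arm 0 of the 3 were called by limma and 1, Cst7, had an unadjusted p under 0.05 (64.3 ± 44.8 in KO and 25.3 ± 5.91 in controls, SD, n = 5 each). Csta1 was not analysed here.

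Other inhibitors of leukocyte proteases were largely higher in the acute KO spleens: of 13 tested 8 rose and 2 fell, with a median of 1.64. Wfdc21, a whey acidic protein domain gene, averaged 1357 ± 766 in KO and 111 ± 61.6 in controls (log2 fold change 3.61, SE 0.419, limma adjusted p = 9.11e-05). Serpinb1a, an inhibitor of neutrophil elastase, averaged 2802 ± 1448 in KO and 245 ± 144 in controls (3.54, SE 0.377, limma adjusted p = 5.51e-05). The falls were those of Serpinb6b, with 552 ± 91.6 in KO and 817 ± 40.6 in controls (-0.58, limma adjusted p = 0.000966), and of the metalloproteinase inhibitor Timp2, with 1909 ± 151 in KO and 2628 ± 178 in controls (-0.46, limma adjusted p = 0.00031). Scaled to Trbc1 and Trbc2, the falls of Serpinb6b (-0.20, limma adjusted p = 0.0737) and Timp2 (-0.09, limma adjusted p = 0.497) were not called. Under quantile normalization 7 inhibitors were called higher and 4 lower. Of 12 tested in the survival arm 0 were called by limma and 0 had an unadjusted p under 0.05.

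Neutrophil markers moved with the cluster in the acute arm. All 15 markers on the list were called higher in acute KO spleens, with a median log2 fold change of 3.74, and their sum was 188595–648891 in KO libraries and 13198–51647 in control libraries (log2 difference 3.76, SE 0.482). The marker sum ordered the KO libraries as every stefin gene did, 1, 4, 3 and then 2. Per 1000 normalized counts of neutrophil markers, the cluster sum was 0.988, 1.51, 1.82 and 2.26 in KO libraries 1 to 4, and 0.861 at the lowest, 1.35 at the median and 2.45 at the highest in controls. On this scale the groups overlapped. The difference in mean log2(ratio + 1) was 0.12 (SE 0.217), and adding 1 to ratios this small shrinks it. The cluster sum itself had a log2 difference of 3.95 (SE 0.568), beside 3.76 for the marker sum.

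With the neutrophil marker score as a covariate, 0 of 6 members were called, as were 0 of all 16363 genes, with 0 members and 1021 genes at an unadjusted limma p under 0.05, and the cluster sum differed by 0.82 (SE 1.21). The score separates the groups completely, from 0.713 to 1.59 in KO and from -1.07 to -0.243 in controls, so score and group can hardly be told apart in this fit. Whether neutrophil content accounts for the stefin values was not tested.

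In the survival arm the marker sum was 31354, 3094, 29035, 8777 and 2948 in KO libraries and 20542, 28881, 25857, 5638 and 25947 in control libraries, and limma called 0 of 15 markers, 0 of them with an unadjusted p below 0.05. The log2 difference of the marker sum was -0.99 (SE 0.863), beside 0.18 (SE 0.468) for the cluster sum. KO library 1, the library with the highest stefin sum, also had the highest marker sum. KO library 3 had nearly as high a marker sum but a stefin sum of 18.9. Per 1000 neutrophil marker counts the cluster stood at 0.652–4.68 in KO and 0.402–2.65 in controls. The difference in mean log2(ratio + 1) was 0.69 (SE 0.394), again shrunk by the added 1.

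**Figure D4:**
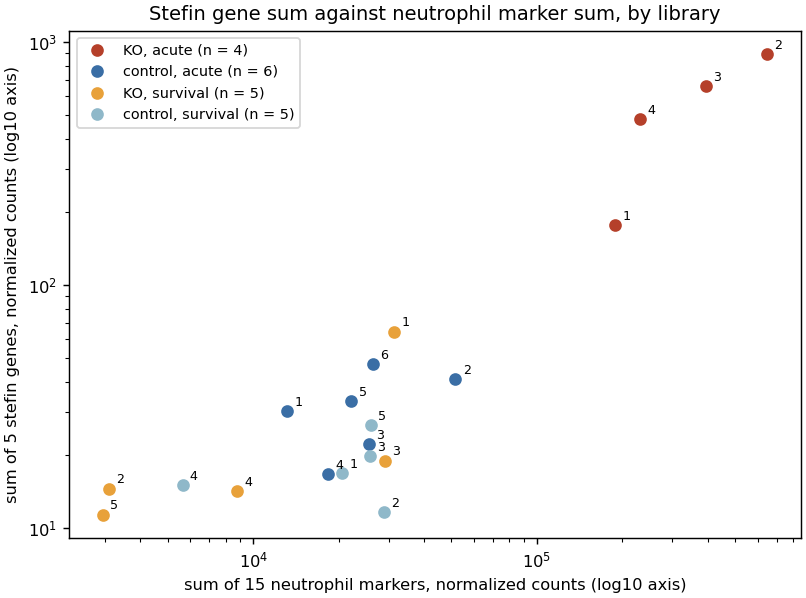
Sum of the 5 stefin A cluster genes listed in both tables against the sum of 15 neutrophil markers, in normalized counts on log10 axes, with 1 point per library and its replicate number beside it. The 4 acute KO libraries lie at the upper right, with marker sums of 188595 and more, apart from the other 16 libraries. The arms were normalized separately.

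Markers of several other cell types were higher in the same acute KO spleens, and their part in the stefin values was not tested. Of neutrophil precursor markers 5 of 5 were called higher, summing to 14132–32170 in KO and 571–5080 in controls. For monocytes and macrophages it was 11 of 11, with sums of 5923–14195 in KO and 2457–2912 in controls. For basophils and mast cells all 4 tested of the 8 markers on the list were called higher, with sums of 648–1533 in KO and 18.5–110 in controls and Tpsb2 at 0 or not analysed here. Eosinophil (4 of 6 tested), B-cell (6 of 6), NK (3 of 3), dendritic (2 of 3) and megakaryocyte (2 of 3) markers were also called higher, erythroid (0 of 5) and stromal (0 of 4) markers were not, and 10 of 11 T-lineage markers were called lower, with a median of -0.40. Scaled to Trbc1 and Trbc2, 3 of the 11 T-lineage markers were called lower (median -0.026) and the erythroid count was 2, and under quantile normalization the megakaryocyte count was 0.

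Stefin A is also known from the epidermis, so keratinocyte markers were read too. Of 9 markers 3 were tested in the acute arm, with 1 higher and 1 lower (0 higher under quantile normalization, 0 lower when scaled to Trbc1 and Trbc2), and their sum was 191–337 in KO and 181–253 in controls. The 3 tested were Krt5 (mean 25.1 in KO and 22.8 in controls), Krt10 (41.2 and 60.4, called lower) and Sfn (188 and 124, called higher). Krt1, Ivl, Loricrin, Sprr1a and Trp63 were at 0 or not analysed here.

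The members varied together between libraries of a group. With each value taken as log2 and its group mean removed, the 15 pairs of members in the 10 acute libraries had Pearson r from 0.299 (Cstdc5 and Stfa1) to 0.902 (Stfa2l1 and Stfa3), with a median of 0.68. In the 10 survival libraries the 10 pairs had r from 0.174 to 0.666, with a median of 0.456. These points share libraries, normalization and, for the near-copies, reads, and the near-copies Cstdc5 and Stfa1 were the pair with the lowest acute r.

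The genes whose variation within groups was most like that of the cluster were ranked by the same measure. This was r with the 5-member sum over 20 libraries, among 11601 genes with a mean of at least 50. The median gene had r = 0.027. Mmp8, the neutrophil collagenase, came first (r = 0.86, Spearman 0.826), followed by the interleukin-1 family cytokine gene Il36g (0.856), the myeloid transcription factor gene Cebpb (0.849), the aspartic protease gene Asprv1 (0.848), Sorl1 (0.839), Ehd3 (0.83), the kinase gene Lrrk2 (0.83) and the immunoreceptor gene Nfam1 (0.824). Without the 2 libraries farthest from the median, survival KO library 1 and acute KO library 1, r was 0.828 for Mmp8, 0.791 for Il36g, 0.804 for Cebpb and 0.704 for Asprv1. Of the neutrophil markers, Cxcr2 ranked 12, Csf3r 15 and Mmp9 25, whereas the calcium-binding protein gene S100a8 (357), the granule genes Ngp (392) and Camp (420) and the surface gene Ly6g (742) ranked lower. Group means were removed, so r does not describe the difference between KO and control. The acute log2 fold change was 0.24 for Ehd3 and 1.52 for Cebpb. For the rest of the 8 most alike genes it lay between 3.45 (Sorl1) and 4.67 (Mmp8). All points share library and depth.

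The tested genes beside the cluster on chromosome 16 showed smaller acute differences than its members, which were selected on high acute KO values. Of the 5 nearest listed genes on the low-coordinate side, Kpna1, Wdr5b and Fam162a were not called in the acute arm, Gm15564 was not tested, and Parp9 was called higher (1928 ± 246 in KO and 1599 ± 106 in controls; log2 fold change 0.26, limma adjusted p = 0.0295). On the high-coordinate side Cd86, a costimulatory ligand of antigen-presenting cells, was called higher (126 ± 53.7 in KO and 49.5 ± 10.1 in controls; log2 fold change 1.24, limma adjusted p = 0.0083), Slc15a2, Eaf2 and Iqcb1 were not called, and Ildr1 was not tested. Within the cluster Csta2, a further stefin A gene outside the symbol rule, was too low to be tested. It stood at 3.65–11.2 in acute KO libraries and 0.720–2.96 in acute controls, without overlap. Of the genes tested in that arm, 12.7% had every KO library above every control library. Csta2 averaged 1.70 ± 1.04 in survival KO and 2.95 ± 2.96 in survival controls. Gm6815, also within the cluster and too low to be tested, overlapped between the groups. It averaged 0.495 in acute KO and 1.53 in acute controls.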

How the data were processed

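RNA was extracted from leukemic spleen suspensions and sequenced as strand-specific polyadenylated libraries, per the labels' protocols. The authors deposited 1 table per arm with a signal per gene and library, DESeq-normalized counts that are not whole numbers. Per the submitters' processing notes, kallisto 0.46.0, DESeq and the build GRCm39 were used; the sources used here give neither the annotation nor how transcripts were merged into genes.

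From these values log2(value + 1) was computed. Genes reaching 10 in at least 4 acute or 5 survival libraries were fitted per table with limma 3.58.1 in R 4.3.3 (lmFit, eBayes with trend), KO against control, two-sided, with Benjamini-Hochberg adjustment over all genes tested and calls at an adjusted p under 0.05. The fit was tested on simulated data. The difference between arms was fitted over all 20 libraries. The signal is already scaled, so counting intervals were not computed and depth in reads is unknown.

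The members and gene lists were chosen with earlier results of these data known. Named genes were every member, Acly, the 2 largest called rises and falls per list with a group mean of at least 50, a fixed set of cathepsins and cystatins, the 8 most alike genes, and 5 neighbours a side. Gene order came from the RefSeq gene table and transcripts from GENCODE vM21, both on GRCm38, an older build than that of the tables. Python 3.11.15 with Biopython 1.88 handled sequences. Alternatives covered pseudocount, filter, scaling, variance model, replicate block, a neutrophil covariate and left-out libraries; summing near-copies was chosen after seeing the data.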

Additional observations from a re-analysis of the deposited data

Results flagged for a closer look

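Of 26 groups of values examined for a single library far from the rest, 3 held one, where chance would give about 1 in 20. Stfa1 was at 0 in acute control library 4, below the other 5 controls. Survival KO library 1 was far above the other KO libraries for Stfa2l1 (28.5) and for the cluster sum (64.2). These are not separate cases, since Stfa2l1 made up 44.4% of that sum.

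The survival log2 fold change less the acute one, tested with limma over all genes, passed the threshold for 12 of the genes whose fold changes are given singly above. This list leaves out the neutrophil markers and the genes ranked by likeness. The difference was -0.92 for Acly, -2.75 for Ctsh, -1.84 for Ctsw, -1.21 for Ctss, -0.85 for Ctsc, -0.36 for Ctsz, -0.32 for the neighbour Parp9, -0.62 for Cst3, -4.14 for Wfdc21 and -4.70 for Serpinb1a. It was 0.57 for Serpinb6b and 0.37 for Timp2, which were lower in KO in the acute arm and near their controls in the survival arm.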

How the results depend on the processing

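The choice of members fixes the direction of their acute differences, so that all 142 acute values of members and cluster sum were positive, and 6 members called under each alternative but one, is no sign of stability. The exception was the neutrophil score as a covariate (0 called). Under that covariate genes called fell to 0 in the acute and 1 in the survival arm, and cathepsins, other cystatins and other inhibitors called to 0 each; the acute cluster sum was 0.82, and Cst7 (-0.99), Wfdc21 (-0.67), Serpinb1a (-0.31), Ctss (-0.36), Ctsz (-0.47) and the uncalled Ctsb (-0.38) turned negative. The members then lay between 0.049 (Stfa2l1) and 1.16 (Cstdc5). Without acute KO libraries 2 and 3 there were 2079 genes and 1 other cystatin called, against 5140 and 2. Scaling to Trbc1 and Trbc2 moved the median of all acute genes to 0.35 (7355 higher, 94 lower, against 2731 and 2409), turned Cstb to 0.26 and gave 1 call in the survival arm; quantile normalization moved it to -0.14 (2318 higher, 4145 lower). Leaving out 1 library gave 3671–5510 calls in the acute arm, 1–23 in the survival arm (23 without control library 4, and 1 without KO library 1 or 5 or control library 1, 2, 3 or 5), 1–2 other cystatins (1 without KO library 2 or 3), 4–6 cathepsins, and cluster sums of 3.64–4.43 and -0.24 to 0.36. With a pseudocount of 5, Stfa3 was 2.64. The cause of these shifts was not tested.

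The replicate numbers do not pair the libraries: same-numbered libraries correlated at -0.0662 to 0.142. Of the KO libraries of both arms, only acute KO library 1 correlated best with the control library of its own number. With the replicate block 3294 acute genes (2108 higher, 1186 lower) and 1 other cystatin were called, Cst3 not among them (0.57, limma adjusted p = 0.0602), the acute cluster sum was 4.17, and 2 genes were called in the survival arm.

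Survival values of a few normalized counts limit what can be read there.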
